A study of Mus musculus with 6 samples.

Results

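Serpins and the genes of plasminogen activation were examined in renal cortex of mice with unilateral ischemia-reperfusion injury (UIRI), with and without bruceine A (BA, named Brucine A in the sample labels), a quassinoid that the study tested against kidney fibrosis. The members were every gene whose symbol begins with Serpin, without Serpinh1, together with Plat, Plau, Plaur and Plg. The table of normalized counts held 36 such genes among 19176 rows, and 35 of them, 31 serpins and 4 others, are described here. Of the 64 coding genes with these symbols in GENCODE release M21, 34 were in the table and 30 were not, Serpinb2 and Serpina5 among the latter. The other 2 genes in the table, Serpina3h and Serpinb10, are not protein-coding in that release. Each gene in the table held at least 10 reads over the 6 libraries. The UIRI group (3 libraries) came from wild-type C57BL/6J mice given vehicle each day by intraperitoneal injection after surgery. The UIRI + BA group (3 libraries) came from mice of the same strain and surgery given BA at 1 mg/kg each day. Renal cortex was taken on day 14 in both groups. The methods describe young adult males with the left renal pedicle clamped and the right kidney removed the day before harvest, so every mouse carried both procedures. Sham kidneys were not analysed here, and what the injury itself did to these genes cannot be read from the libraries.

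Serpins are proteins that hold out a loop as bait to a protease and trap the protease that cuts it. A few of them bind hormones or have lost the inhibitory role. The urokinase-type and tissue-type activators, encoded by Plau and Plat, cut plasminogen (Plg) into plasmin, a protease that dissolves fibrin and cuts matrix proteins. Plaur encodes the surface receptor of urokinase. Serpine2 (protease nexin-1) blocks thrombin, urokinase and plasmin, and Serpinf2 (alpha-2-antiplasmin) blocks plasmin.

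The values were read counts divided by a size factor per library, here called normalized counts. Between 16510720 and 38124164 reads fell on genes in a library, the most in UIRI replicate 3, which held 2.04 times the median of the rest. The 12 proximal tubule markers looked for were all in the table with a mean above 10 each, and so were markers of thick limb, collecting duct and podocytes, so the label of kidney was met, though these lists do not separate cortex from outer medulla. All 12 proximal tubule markers had a higher group mean with BA. Their summed normalized count ran from 60100 to 78776 in UIRI and from 85947 to 144080 in UIRI + BA. Kap alone held 44.5% of the counts of this list, and it was the 1 gene of the 12 without a call (log2 fold change 0.54, limma p 0.106). The 9 markers of fibroblasts and myofibroblasts were all lower with BA (summed 115280 to 133770 in UIRI, 84230 to 107140 in UIRI + BA), and so were the 8 macrophage markers (82230 to 118210 and 78722 to 91974). The 7 urothelium markers summed to 169.9, 142.8 and 582.7 in UIRI replicates 1, 2 and 3 and to 37.6, 49.5 and 363.1 in UIRI + BA replicates 1, 2 and 3, so that both libraries numbered 3 stood far above the others.

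The promoters of members on which the comparison turned are shown here, taken from RefSeq on build GRCm38.p6, where 26 of the 35 members had an entry. Each is a run of 300 bases, 5′ to 3′ on the gene's strand, that begins before the start site and ends shortly after it. Capitals mark matches, on either strand, to the TATA box TATAAA, the GC box GGGCGG, the STAT element TTCNNNGAA, the AP-1 element TGANTCA or the SMAD box CAGAC. Serpine2 and Serpinf2 are shown as the inhibitors that moved in opposite directions, and Serpina3n, Serpina3i and Serpina3g as neighbouring copies of 1 cluster, the first pair lower with BA and the last not called.
Serpine2 (chr1:79858616-79858915, minus strand): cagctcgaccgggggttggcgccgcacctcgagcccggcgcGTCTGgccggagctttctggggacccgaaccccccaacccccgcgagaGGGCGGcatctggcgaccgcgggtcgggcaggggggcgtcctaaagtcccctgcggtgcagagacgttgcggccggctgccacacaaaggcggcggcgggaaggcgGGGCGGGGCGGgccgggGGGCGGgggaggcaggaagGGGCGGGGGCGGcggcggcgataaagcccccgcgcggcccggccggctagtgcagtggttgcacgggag
Serpinf2 (chr11:75439452-75439751, minus strand): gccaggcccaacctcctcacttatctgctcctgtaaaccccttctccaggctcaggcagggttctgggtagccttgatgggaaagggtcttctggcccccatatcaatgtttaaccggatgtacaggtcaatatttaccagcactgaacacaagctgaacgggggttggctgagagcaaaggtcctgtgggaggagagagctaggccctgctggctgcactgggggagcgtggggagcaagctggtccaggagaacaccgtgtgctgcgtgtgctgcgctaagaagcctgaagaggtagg
Serpina3n (chr12:104406458-104406757, plus strand): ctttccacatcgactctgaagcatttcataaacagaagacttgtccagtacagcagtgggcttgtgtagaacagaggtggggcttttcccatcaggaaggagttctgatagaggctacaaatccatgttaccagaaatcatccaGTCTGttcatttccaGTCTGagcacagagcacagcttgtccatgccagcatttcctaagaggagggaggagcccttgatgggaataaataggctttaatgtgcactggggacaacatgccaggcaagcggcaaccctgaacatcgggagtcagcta
Serpina3i (chr12:104262872-104263171, plus strand): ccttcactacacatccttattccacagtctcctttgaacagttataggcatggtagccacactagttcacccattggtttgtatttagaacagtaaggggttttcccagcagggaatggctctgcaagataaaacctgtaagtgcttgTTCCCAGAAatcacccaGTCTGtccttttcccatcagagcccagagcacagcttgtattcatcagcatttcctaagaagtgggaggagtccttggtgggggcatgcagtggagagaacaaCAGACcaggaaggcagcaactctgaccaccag
Serpina3g (chr12:104235897-104236196, plus strand): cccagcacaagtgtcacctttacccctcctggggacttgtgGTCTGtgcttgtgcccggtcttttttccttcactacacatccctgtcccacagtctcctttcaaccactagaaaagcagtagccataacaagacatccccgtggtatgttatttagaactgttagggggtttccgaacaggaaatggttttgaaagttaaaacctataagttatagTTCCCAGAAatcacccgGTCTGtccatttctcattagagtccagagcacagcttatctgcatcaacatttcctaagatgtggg
The Serpine2 window held 6 matches to the GC box, which 35.7% of all 32851 promoters in the RefSeq table held at least once, and the Serpinf2 window held no match to any of the 5 motifs. The STAT element, found in 8.3% of all promoters, was matched once in Serpina3i and once in Serpina3g and not in Serpina3n. The SMAD box, found in 49.6% of all promoters, was matched at 2 places in each of the Serpina3 windows shown. Aligned end to end, the Serpina3n and Serpina3i windows were 63.4% identical, Serpina3i and Serpina3g 50.4%, and Serpina3n and Serpina3g 38%. Windows of the Serpina1 cluster were 41.2% to 49.1% identical to those of the Serpina3 cluster. The windows follow annotated start sites that are shifted between copies: the STAT match lay at -102 from the start site in Serpina3i and at -33 in Serpina3g. Identity of whole windows therefore does not measure how alike these copies are. The motif matches describe the letters and say nothing of which factor acts there.

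The comparison of UIRI + BA with UIRI asks which of these genes changed under BA. Serpinf2 and Serpina10 were higher in every UIRI + BA library than in any UIRI library, at 1.56 and 1.26 times the UIRI level on the scale of the fit. Serpine2, Serpina3n and Serpina3i were lower in every UIRI + BA library, at 0.78, 0.80 and 0.72 times the UIRI level. In limma's fit over all rows, 9 of the 35 members (25.7%) had an unadjusted p below 0.05, against 10.3% of all rows. Of these, 3 were higher with BA (Serpina10, Serpinb8 and Serpinf2; 5.67% of all rows were called higher) and 6 were lower (Serpina3i, Serpina3n, Serpinb6c, Serpind1, Serpine2 and Serpini1; 4.61% of all rows). After adjustment by limma no member passed 0.05, nor did any of the 19176 rows (0), and the lowest adjusted value of a member was 0.291. On the recovered reads, edgeR's quasi-likelihood test called 7 of 31 members at an unadjusted p below 0.05 (9.93% of all genes tested), all of them among the 9, and 0 at an adjusted p below 0.05. DESeq2's Wald test called 9 of 35 (7.88%), with Serpinf1 in place of Serpind1, and gave 1 member, Serpinf2, an adjusted p below 0.05 (1.49% of genes with an adjusted p). Without UIRI replicate 3, limma called 15 members at an unadjusted p below 0.05 (25.2% of all rows) and gave 4 an adjusted p below 0.05 (5.02% of all rows). Serpina10 and Serpinf2 were higher (3.22% of all rows) and Serpina3n and Serpine2 lower (1.79%). Without both libraries numbered 3, in a comparison of 2 against 2, 4 members had an adjusted p below 0.05 from limma (2.9% of all rows), namely Serpina10, Serpine2, Serpinf2 and Serpini1. The urothelium markers of both libraries numbered 3 and the depth of UIRI replicate 3 stand beside these counts, and their part was not tested. The groups did not overlap in 7 members, against 14.4% of all rows: 2 members were higher (7.45% of all rows) and 5 lower (6.96%). Of the 35 members 24 were lower and 11 higher with BA, where 9793 of all 19176 rows were lower. The median of the members was -0.13 on the log2 scale, beside -0.01 over all rows. All 4 members with a mean below 10 were lower, and the median was -0.09 for the 31 with a mean of at least 10 and -0.08 for the 18 with at least 200. In bulk tissue, fewer cells of a type and less RNA per cell cannot be told apart.

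**Figure D1:**
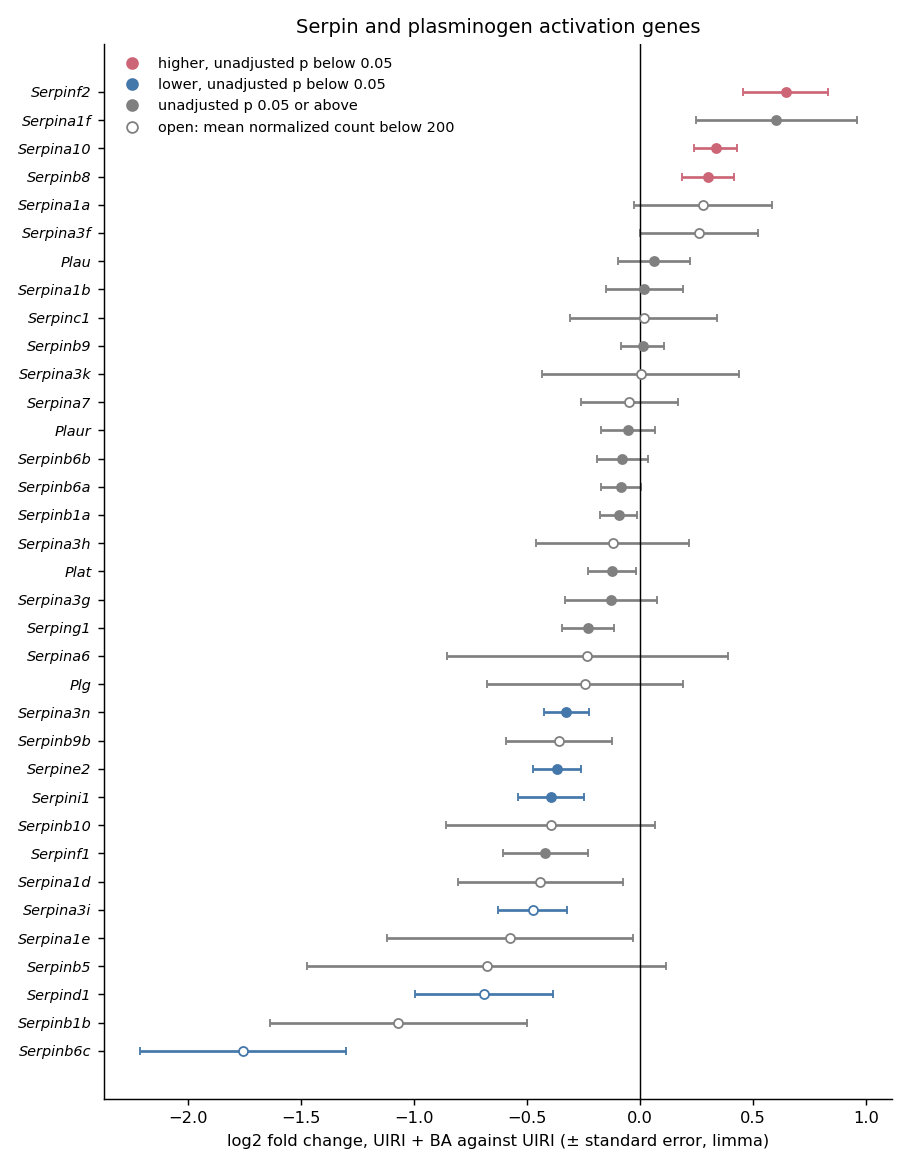
Log2 fold changes of the 35 serpin and plasminogen activation genes, UIRI + BA against UIRI, with bars of 1 standard error from limma (x axis, log2 scale; genes on the y axis, open points for a mean normalized count below 200). Of the 9 coloured genes, with an unadjusted p below 0.05, 3 lie to the right of 0 and 6 to the left, and Plau, Plat and Plaur lie within 0.13 of 0.

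The activators come first. Plau, the urokinase gene, had the highest level of all members per kilobase of its longest transcript (6134 normalized counts per kilobase over the 6 libraries), followed by Serping1 (5932), Serpine2 (2414), Serpinb6a (1572) and Plat (1299). The normalized count of Plau was 12653, 11497 and 18499 in UIRI replicates 1, 2 and 3 and 14034, 14106 and 15408 in UIRI + BA replicates 1, 2 and 3. UIRI replicate 3 was the highest of all 6 and the other UIRI libraries the lowest, so the groups overlapped. The log2 fold change of Plau was 0.06 (standard error, SE, 0.16, limma adjusted p 0.903), with a 95% interval from -0.30 to 0.42. It turned to -0.01 without UIRI replicate 1 and to -0.08 without UIRI replicate 2, and rose to 0.27 without UIRI replicate 3 and to 0.22 without both libraries numbered 3, where its unadjusted p fell below 0.05.

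Plat, the tissue-type activator, read 5569, 6112 and 4774 in the UIRI libraries and 4629, 5490.2 and 4920 in those with BA. Its lowest UIRI library lay inside the UIRI + BA range. The log2 fold change was -0.13 (SE 0.11, limma adjusted p 0.682; 95% interval -0.37 to 0.11). With each library left out it ran from -0.22, without UIRI replicate 3, where it gained a call (limma p 0.0311), to -0.04 without UIRI replicate 2. Plaur, the urokinase receptor, read 463, 483 and 597 in the UIRI libraries and 464, 545 and 473 in those with BA, again with overlap (log2 fold change -0.05, adjusted p 0.882 from limma), and it turned to 0.06 without UIRI replicate 3. Plg, which is made mainly by liver, was near the bottom of the range with 6 to 14 reads per library. Its normalized counts, 15.9, 15.7 and 6.02 in the UIRI libraries and 7.52, 8.62 and 13.6 in those with BA, overlapped (log2 fold change -0.24, SE 0.43, limma adjusted p 0.850). Its 95% interval ran from -1.22 to 0.73, so the values did not settle whether Plg was lower, higher or unchanged with BA.

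**Figure D2:**
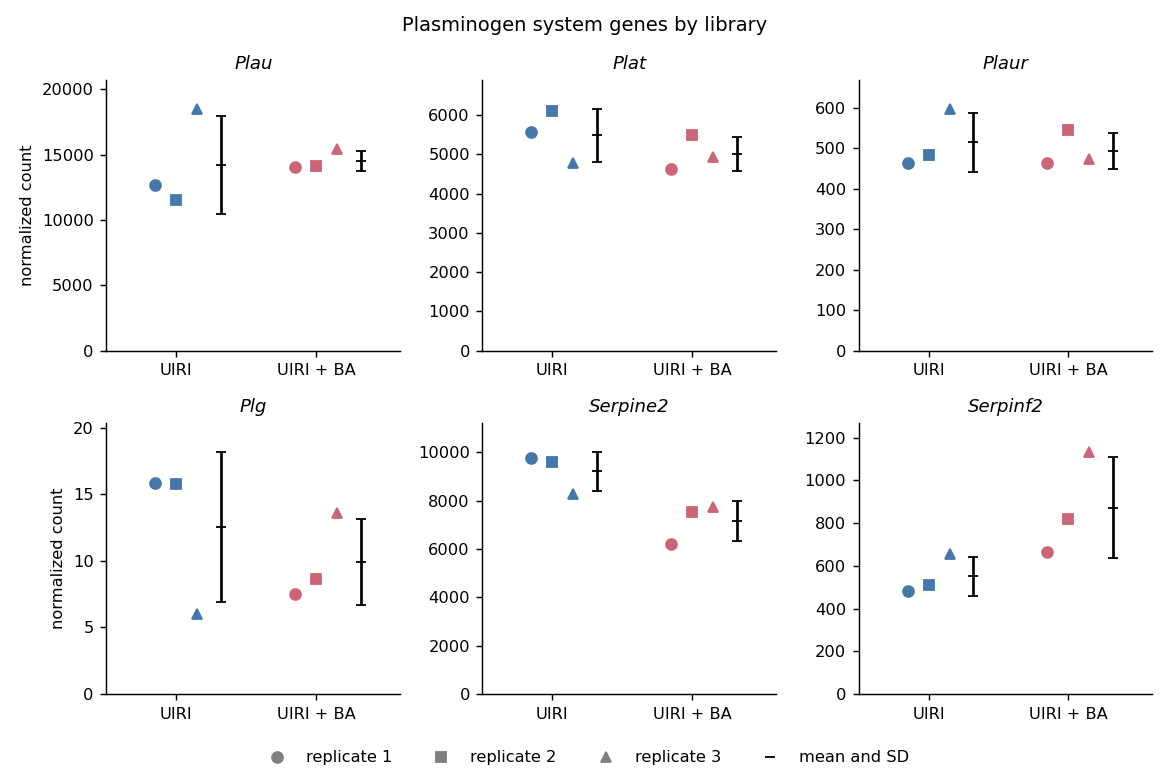
Normalized count (y axis, from 0, a scale of its own in each panel) of the plasminogen system genes in each library of the UIRI and UIRI + BA groups, with the group mean and SD beside the 3 replicates. Serpine2 and Serpinf2 show no overlap between the groups, while UIRI replicate 3 stands above every other library for Plau.

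Among the inhibitors of this system, Serpine2 was lower with BA. Its normalized count was 9771, 9586 and 8295 in the UIRI libraries and 6202, 7529 and 7759 in those with BA, so that all 3 UIRI libraries lay above all 3 UIRI + BA libraries (p = 0.1 by an exact permutation test, two-sided, which 3 against 3 cannot go below). The means were 9217 ± 805 (SD, n = 3) and 7164 ± 840.4 (SD, n = 3), with a log2 fold change of -0.37 (SE 0.11, limma p 0.00752, adjusted p 0.341). With each library left out in turn it ran from -0.44 to -0.27, with an unadjusted p below 0.05 each time. On build GRCm38 the gene lies on chromosome 1 from 79794197 to 79861180 on the minus strand; the start site of the promoter shown lies inside this span. Here and below, positions come from GENCODE M21 by symbol, since the authors' build is not given in the sources used here.

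Serpinf2 was higher with BA. It read 481, 512 and 657 in the UIRI libraries and 666, 818 and 1133 in those with BA, with no overlap, although UIRI replicate 3 and UIRI + BA replicate 1 lay close together. The means were 550 ± 93.6 (SD, n = 3) and 873 ± 238 (SD, n = 3), and the log2 fold change was 0.64 (SE 0.19, limma p 0.00757, adjusted p 0.342), the highest of the members in this fit. Leaving out UIRI + BA replicate 3 gave 0.44, the lowest such value, and leaving out UIRI + BA replicate 1 gave 0.82, the highest. DESeq2 gave 0.66 with an adjusted p of 0.039. Serpina1f, which is described below and was not called in the fit of all libraries, had a higher value than Serpinf2 with DESeq2 (0.71) and without UIRI replicate 3 (0.85 against 0.78).

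Serpinf1 (pigment epithelium-derived factor, a serpin without inhibitory activity) is the neighbour of Serpinf2, both within 75409769 to 75439591 on chromosome 11. It read 597, 382 and 473 in the UIRI libraries and 298, 337 and 448 in those with BA, with overlap (log2 fold change -0.42, SE 0.19, limma p 0.052). Serpinf1 stood near the threshold. It was called lower with DESeq2 (-0.42), with upper quartile scaling (-0.44), with the replicate block and on leaving out UIRI replicate 2 (-0.58), UIRI + BA replicate 3 (-0.59) or both libraries numbered 3 (-0.59), and its value was -0.26 without UIRI replicate 1. The ratio of Serpinf2 to Serpinf1 was 0.81, 1.34 and 1.39 in the UIRI libraries and 2.24, 2.43 and 2.53 in those with BA. The ratio was thus higher in all 3 UIRI + BA libraries (exact permutation p = 0.1).

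Ratios of activator to Serpine2 were compared within each library, as a description of the balance of transcripts. The ratio of Plat to Serpine2 was 0.57, 0.64 and 0.58 in the UIRI libraries and 0.75, 0.73 and 0.63 in those with BA. Only the lowest UIRI + BA library fell below a UIRI library, and the exact permutation p was 0.2. The ratio of Plau to Serpine2 was 1.3, 1.2 and 2.23 in the UIRI libraries and 2.26, 1.87 and 1.99 in those with BA (exact permutation p = 0.3). Among 5 ratios between members, the one of Serpinf2 to Serpinf1 alone had no overlap, and the Benjamini-Hochberg adjusted value of its exact p was 0.5.

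**Figure D3:**
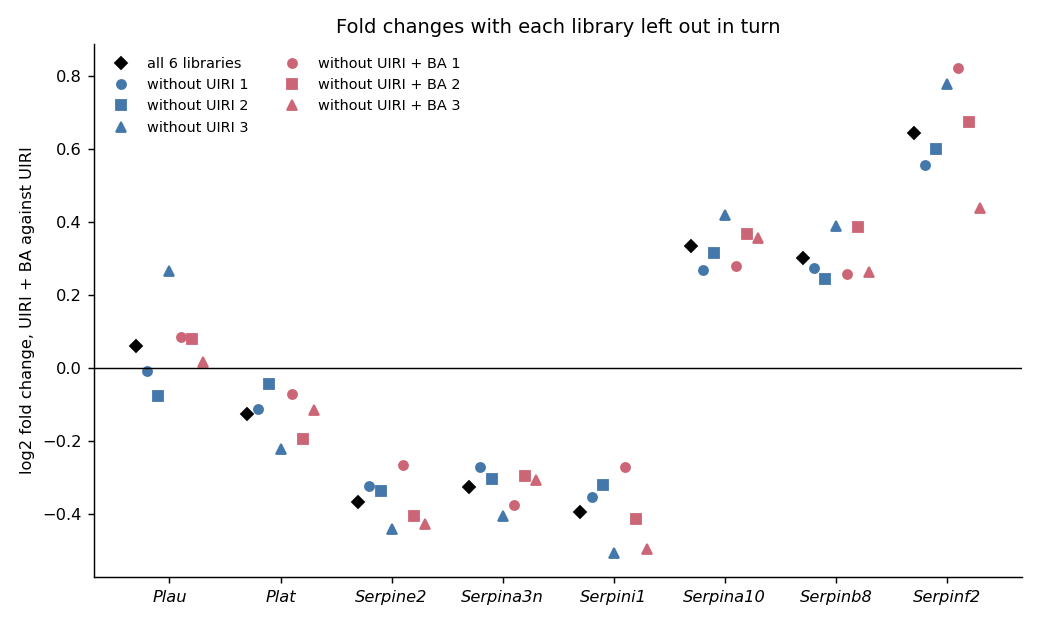
Log2 fold change of 8 members (y axis, log2 scale, UIRI + BA against UIRI) with all 6 libraries and with each library left out in turn. Serpine2, Serpina3n and Serpini1 stay below 0 and Serpina10, Serpinb8 and Serpinf2 above 0 in all of these fits, while Plau crosses 0.

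The clade a serpins numbered 14, of which 13 lie within 103614786 to 104414329 on chromosome 12. Serpina10, the protein Z-dependent inhibitor of coagulation factor X, had the highest level of them per kilobase (772 normalized counts) and was higher with BA. It read 2177, 2324 and 2677 in the UIRI libraries and 3245, 2867 and 2916 in those with BA, with no overlap. The means were 2393 ± 257 (SD, n = 3) and 3009 ± 205 (SD, n = 3) and the log2 fold change 0.33 (SE 0.09, limma p 0.00631, adjusted p 0.324), from 0.27 to 0.42 with each library left out.

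The Serpina3 cluster holds copies of an acute-phase inhibitor of leukocyte proteases. Of the 6 members in the table, Serpina3n and Serpina3i were called lower and the other 4 (Serpina3f, Serpina3g, Serpina3h and Serpina3k) were not called. Serpina3n read 721, 688 and 597 in the UIRI libraries and 569, 509 and 518 in those with BA, with every UIRI library above every UIRI + BA library. Its log2 fold change was -0.33 (SE 0.10, limma p 0.00945, adjusted p 0.358). Serpina3i, at 36 normalized counts per kilobase against 291 for Serpina3n, read 95.2, 85.5 and 94.7 in the UIRI libraries and 62.6, 71.1 and 63.7 in those with BA, again with no overlap (log2 fold change -0.47, SE 0.15, limma p 0.0122, adjusted p 0.378). This call was lost without both libraries numbered 3 (-0.43).

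Serpina3g, known from activated T cells and macrophages, read 745, 831 and 584 in the UIRI libraries and 729, 809 and 467 in those with BA, and the libraries numbered 3 were the lowest of each group (log2 fold change -0.13, unadjusted p 0.537 from limma). The ratio of Serpina3n to Serpina3g was 0.94 ± 0.10 (SD, n = 3) without BA and 0.84 ± 0.24 (SD, n = 3) with it (exact permutation p = 0.6), so that the changes of these copies were not shown to differ. Serpina3f read 106, 119 and 114 in the UIRI libraries and 160.3, 184 and 84.5 in those with BA, the lowest and the highest values both with BA. Serpina3h ran from 30.6 to 79.4 and Serpina3k from 20.3 to 76.5 over the 6 libraries. The members of this cluster are close copies, and reads can be shared or lost between them in counting, so their single values are less certain than those of other genes.

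**Figure D4:**
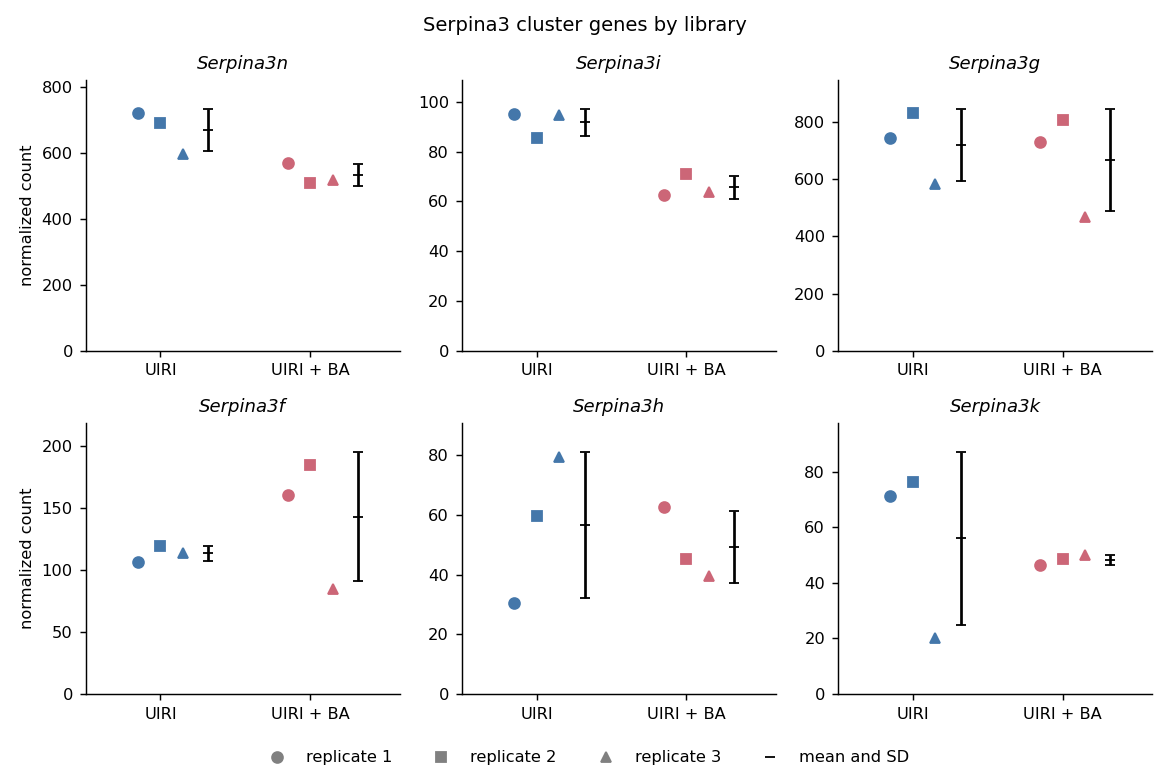
Normalized count (y axis, from 0, a scale of its own in each panel) of the 6 Serpina3 cluster genes in each library of the UIRI and UIRI + BA groups, with the group mean and SD beside the 3 replicates. The groups do not overlap for Serpina3n and Serpina3i and overlap for the other 4.

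The Serpina1 cluster encodes alpha-1-antitrypsin, an inhibitor of neutrophil elastase, and its relatives, which need not share this target. None of its 5 members in the table was called, and 3 were higher and 2 lower with BA. Serpina1b, the highest of them per kilobase, had a normalized count of 598 ± 133 (SD, n = 3) without BA and 599.8 ± 89.3 (SD, n = 3) with it, with a log2 fold change of 0.019 (95% interval -0.37 to 0.41). Serpina1f read 316, 337 and 551 in the UIRI libraries and 422, 439 and 1112 in those with BA, with UIRI + BA replicate 3 far above the others. Its log2 fold change of 0.60 (SE 0.35, limma p 0.123) was 0.15 without that library, 0.85 with a call without UIRI replicate 3 (limma p 0.035) and 0.40 with a call without both libraries numbered 3 (limma p 0.00561). It was also called with the replicate number as a block (limma p 0.00216). Serpina1a, Serpina1d and Serpina1e ran from 5.01 to 273 over the 6 libraries and overlapped between the groups. The Serpina1a, Serpina1b and Serpina1d promoter windows were 86.9% to 89.8% identical to each other, that of Serpina1e was 63.3% to 69.3% identical to these 3, and that of Serpina1f 44.0% to 48.2% identical to the other 4. The Serpina1e window was shifted: a SMAD box match that it shares with Serpina1a, Serpina1b and Serpina1d lay at -22 from its start site and at 36, 31 and 41 in theirs. Its lower identity therefore cannot be read as divergence of the promoter. Identity of promoters does not measure how reads of the transcripts were shared, which was not tested.

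Of the remaining clade a genes, Serpina6 (corticosteroid-binding globulin) read 14.7, 51.7 and 129 in the UIRI libraries and 40.1, 47.4 and 32.3 in those with BA, and Serpina7 (thyroxine-binding globulin, chromosome X) stayed between 29.5 and 40.5 in all 6 libraries. Neither was called.

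Clade b serpins act inside cells, mostly against proteases of leukocyte and lysosomal granules. Of 10 in the table, 8 were lower and 2 higher with BA, and 1 was called in each direction. The lower ones included 4 with a mean below 10 (Serpinb1b, Serpinb5, Serpinb6c and Serpinb10). Serpinb8 was called higher. It read 379.5, 364 and 445 in the UIRI libraries and 517, 434 and 514 in those with BA, where UIRI replicate 3 lay above the lowest UIRI + BA library. Its log2 fold change was 0.30 (SE 0.12, limma p 0.0276, adjusted p 0.448), and it kept an unadjusted p below 0.05 in 2 of the 6 fits without 1 library. The call was lost without UIRI replicate 1 (0.27), UIRI replicate 2 (0.24), UIRI + BA replicate 1 (0.26) and UIRI + BA replicate 3 (0.26).

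Serpinb6c was called lower, at the floor of the measurement. It rested on 33 reads over the UIRI libraries and 6 over the UIRI + BA libraries, none of which held more than 3. The ratio of UIRI + BA to UIRI from these reads was 0.24, with a 95% interval of 0.083 to 0.59 that covers counting error only. The normalized counts were 12.5, 9.0 and 7.67 in the UIRI libraries and 2.51, 3.23 and 1.04 in those with BA, and the groups did not overlap. The abundant relatives Serpinb6a, an inhibitor of cathepsin G and of trypsin-like proteases, and Serpinb6b were not called. Their log2 fold changes were -0.08 and -0.08 (adjusted p 0.736 and 0.814 from limma).

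Serpinb9, the inhibitor of granzyme B, read 3743, 3515 and 4067 in the UIRI libraries and 3818, 4192 and 3417 in those with BA. The groups overlapped, and the log2 fold change of 0.011 had a 95% interval from -0.20 to 0.23. Serpinb1a, an inhibitor of neutrophil elastase, had 831 ± 4.8 (SD, n = 3) without BA and 779 ± 51.2 (SD, n = 3) with it (log2 fold change -0.09, 95% interval -0.28 to 0.09). Serpinb1b, Serpinb5, Serpinb9b and Serpinb10 ran from 1.08 to 48.4 over the 6 libraries and were lower on average with BA without a call. Serpinb5 (maspin), known from keratinocytes and other lining epithelia, read 4.53, 3.37 and 17.0 in the UIRI libraries and 2.51, 1.08 and 13.6 in those with BA. Both libraries numbered 3 were the highest of their groups for Serpinb5, as they were for the urothelium markers.

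The other serpins belong to clades with 1 or a pair of genes. Serping1, the inhibitor of the first complement component and of kallikrein, had the highest level of all serpins per kilobase. It read 12718, 11472 and 9802 in the UIRI libraries and 8716, 9569 and 10654 in those with BA. The groups overlapped by a single library on each side, and the log2 fold change was -0.23 (SE 0.11, limma p 0.0766, adjusted p 0.526). It gained a call on leaving out UIRI replicate 3 (-0.33), UIRI + BA replicate 3 (-0.30) or both (-0.40), and the smallest change, -0.14, came on leaving out UIRI replicate 1. Serpini1 (neuroserpin, an inhibitor of tissue-type activator) read 377, 395 and 306 in the UIRI libraries and 229, 279 and 313 in those with BA, with an overlap of UIRI replicate 3 and UIRI + BA replicate 3. Its log2 fold change was -0.39 (SE 0.15, limma p 0.0245, adjusted p 0.441), and the call was lost without UIRI replicate 1 (-0.35), UIRI replicate 2 (-0.32) and UIRI + BA replicate 1 (-0.27).

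Serpind1 (heparin cofactor II) read 22.7, 29.2 and 15.9 in the UIRI libraries and 11.3, 14.0 and 14.6 in those with BA. The groups did not overlap, on 9 to 29 reads per library, and the log2 fold change of -0.69 had an unadjusted p of 0.0491 and an adjusted p of 0.486 from limma. The call held without UIRI replicate 3 (-0.91) and was lost without any other single library (-0.49 to -0.76), and also with DESeq2, edgeR, a pseudocount of 0.1, quantile normalization and the replicate block. Serpinc1 (antithrombin), mainly a liver gene, had 25.4 ± 8.94 (SD, n = 3) without BA and 25.4 ± 7.67 (SD, n = 3) with it.

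The summed proximal tubule and fibroblast lists stood apart between the groups. The 8 macrophage markers were all lower with BA, though their summed level overlapped. The 6 called members with a mean of at least 200 were therefore expressed per 1000 normalized counts of each of these lists, and of the proximal tubule list without Kap. This step was chosen after the values were seen, and 24 such ratios were formed. The neutrophil and mesothelium lists, whose sums also stood apart, were not used for ratios. Where a member and a list moved in opposite directions, each without overlap, their ratio had to stand apart and adds no result. That held for Serpinf2 and Serpina10 over the fibroblast and myofibroblast list. It also held for Serpine2 and Serpina3n over the proximal tubule list, with and without Kap. The exact permutation p, two-sided, was 0.1 wherever the groups did not overlap, which 3 against 3 cannot go below, and the Benjamini-Hochberg adjusted values were at least 0.2.

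Per 1000 counts of the proximal tubule list, Serpinf2 was 8.01, 7.49 and 8.34 in the UIRI libraries and 7.75, 8.56 and 7.87 in those with BA, with overlap (exact permutation p = 0.8). Without Kap in the list it overlapped too, from 13.6 to 15.5 in UIRI and from 11.3 to 16.7 in UIRI + BA (exact permutation p = 0.9). The 6 libraries stood in the same order by Serpinf2 as by the whole list, but not as by the list without Kap, where UIRI + BA replicate 1 (58724) stood above UIRI + BA replicate 2 (53724). Per 1000 counts of the fibroblast and myofibroblast list, Serpinf2 was 4.53 ± 0.97 (SD, n = 3) without BA and 9.17 ± 1.34 (SD, n = 3) with it. Here the opposite moves of gene and list required the groups to stand apart. Per 1000 of the macrophage list, whose summed level overlapped between the groups, it was 5.61 ± 2.09 (SD, n = 3) and 10.4 ± 3.46 (SD, n = 3). The groups did not overlap, but only barely: UIRI replicate 3 was at 7.99 and UIRI + BA replicate 1 at 8.01.

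Serpina10 per 1000 counts of the proximal tubule list was 36.2, 34.0 and 34.0 in the UIRI libraries and 37.8, 30.0 and 20.2 in those with BA, with overlap (exact permutation p = 0.4). Without Kap it was 70.2, 64.0 and 55.6 in the UIRI libraries and 55.3, 53.4 and 43.0 in those with BA, so that it was lower with BA with no overlap, the opposite of its normalized count. It was higher with no overlap per 1000 of the fibroblast list (19.7 ± 3.19 and 32.5 ± 5.7, SD, n = 3 each) and overlapped on the macrophage list. Serpinb8 did the same: it overlapped on the whole proximal tubule list (exact permutation p = 0.3) and the macrophage list (exact permutation p = 0.2), was lower without Kap (10.5 ± 1.54 and 8.16 ± 0.62, SD, n = 3 each) and was higher on the fibroblast list (3.25 ± 0.47 and 5.24 ± 0.78, SD, n = 3 each).

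Per 1000 counts of the fibroblast and myofibroblast list, Serpine2 was 73.0, 83.2 and 70.0 in the UIRI libraries and 73.6, 83.0 and 72.4 in those with BA, with overlap (exact permutation p = 0.8). Serpina3n was 5.39, 5.97 and 5.04 in the UIRI libraries and 6.75, 5.62 and 4.83 in those with BA (exact permutation p = 0.7), and Serpini1 was 2.94 ± 0.44 (SD, n = 3) and 2.91 ± 0.18 (SD, n = 3) (exact permutation p = 1). Against the macrophage list the same 3 members overlapped between the groups as well (exact permutation p = 0.4 to 0.7). Against the proximal tubule list, with and without Kap, these members were lower with no overlap. Per 1000 counts of the whole list, Serpine2 was 136 ± 28.9 (SD, n = 3) without BA and 68.2 ± 12.9 (SD, n = 3) with it. For Serpine2 and Serpina3n the opposite moves of gene and list required this outcome. Which cells held these transcripts was not measured, and the part of these cell types in the differences was not tested.

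**Figure D5:**
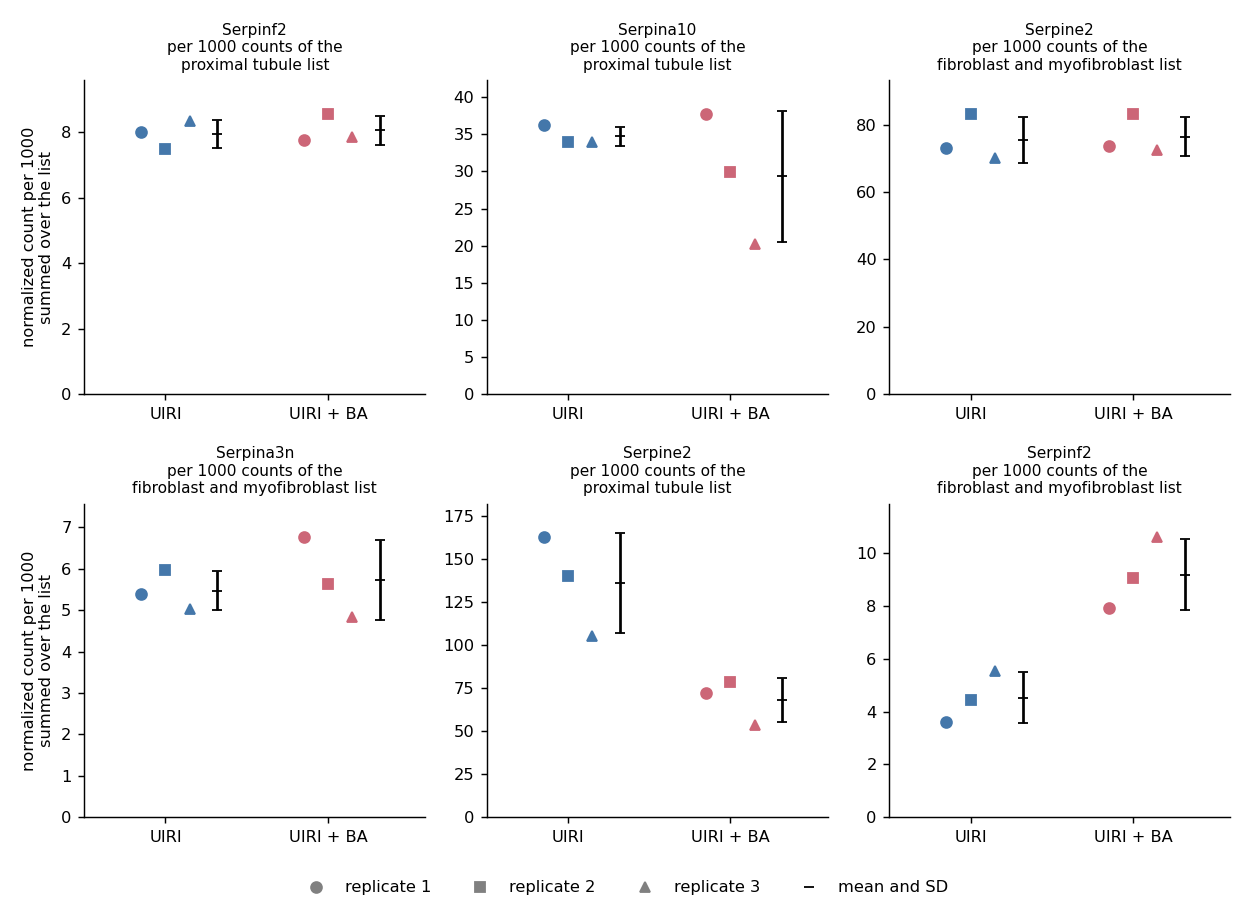
Normalized count of 4 called members per 1000 normalized counts summed over a marker list (y axis, from 0, a scale of its own in each panel) in each library of the UIRI and UIRI + BA groups, with group mean and SD. The groups overlap in the first 4 panels, with Serpinf2 between 7.49 and 8.56 and Serpine2 between 70.0 and 83.2. They stand apart in the last panels, where Serpine2 per proximal tubule count is lower and Serpinf2 per fibroblast count higher with BA. In these last panels gene and list moved in opposite directions without overlap, so the groups had to stand apart.

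The proteases, receptors and cofactors around these genes were looked for as a list of 82, of which 71 were in the table. An unadjusted p below 0.05 was found for 8 higher and 7 lower with BA, against 5.67% and 4.61% of all rows, and an adjusted p below 0.05 from limma for none; edgeR called 6 higher and 7 lower at an unadjusted p below 0.05 (5.52% and 4.41% of all genes tested) and DESeq2 7 higher and 5 lower (4.47% and 3.41%). Without UIRI replicate 3, 15 were called higher and 17 lower, where 13.7% and 11.5% of all rows were called in these directions. The median log2 fold change of the 71 was -0.04.

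Among the genes called higher, Lrp2 (megalin), a receptor that takes up inhibitor and protease complexes and is itself a proximal tubule marker, read 2912, 3608 and 5119 in the UIRI libraries and 7005, 5484 and 7057 in those with BA (log2 fold change 0.78, adjusted p 0.263 from limma). Klk1, the tissue kallikrein, read 6911, 6878 and 7909 in the UIRI libraries and 10219, 11450 and 8549 in those with BA (log2 fold change 0.47, adjusted p 0.263 from limma), and in both genes every UIRI + BA library lay above every UIRI library. Prss8 (prostasin, a membrane protease that Serpine2 inhibits) was higher by 0.32 and Hpn (hepsin, a membrane serine protease) by 0.28 on the log2 scale, both with no overlap between the groups. Proc (protein C, 0.45), Fga (fibrinogen alpha chain, 0.41), Cpb2 (a carboxypeptidase that protects fibrin from plasmin, 0.86) and Itgb3 (integrin beta 3, 0.33) complete the 8. Proc, Fga and Itgb3 overlapped between the groups, and Cpb2 rested on 9 to 34 reads per library. Of the 6 fits without 1 library, Cpb2 kept its call in 1, Fga and Itgb3 in 2 each and Proc and Hpn in 3 each. Lrp2, Klk1 and Prss8 kept theirs in all 6.

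The genes called lower held 3 matrix metalloproteinases, enzymes that cut matrix and that plasmin can activate. Mmp9 (gelatinase B) read 263, 238 and 223 in the UIRI libraries and 135, 157 and 127 in those with BA, a log2 fold change of -0.79 (SE 0.13, limma adjusted p 0.225). Mmp3 (-0.46) and Mmp2 (-0.30) were lower too, and in these 3 genes the groups did not overlap. Mmp13, also on the list, overlapped between the groups and was not called (log2 fold change -0.18, limma p 0.357). Vtn (vitronectin, an adhesion protein of plasma and matrix) had a log2 fold change of -0.92, at 14.4 ± 3.32 (SD, n = 3) in UIRI, and Slpi (an inhibitor of leukocyte elastase) one of -0.63. Vtn rested on 5 to 21 reads per library and Slpi on 9 to 42. Itgam (a leukocyte integrin and macrophage marker, -0.32, with overlap between the groups) and Pros1 (protein S, -0.16) complete the 7. In the 6 fits without 1 library, Pros1 kept its call in 1, Slpi in 2 and Itgam in 3. Mmp2 and Vtn kept theirs in 4 each, and Mmp3 and Mmp9 in all 6. None of the 5 leukocyte proteases in the table was called, with log2 fold changes from -0.39 (Prtn3) to -0.04 (Gzma), and the group means of Gzma and Gzmk differed by less than 1 normalized count. Elane, Ctsg and the mast cell proteases Cma1, Mcpt4 and Tpsb2 were not in it.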

How the data were processed

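Poly-A RNA from renal cortex of 3 UIRI and 3 UIRI + BA mice was sequenced by the study, and each library was taken as 1 mouse. The authors deposited a table of 19176 rows (19166 symbols) with 1 signal column per library, which holds read counts divided by a size factor: the values came out as whole reads within 0.01 for every gene, so reads were recovered. There were 0 unused columns of values per library. The log2 fold change and p-value columns and the enrichment tables hold the authors' own comparisons and were not used.

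Limma 3.58.1 (R 4.3.3) was fitted to log2(normalized count + 1) over all rows, with a trended prior, no covariate and Benjamini-Hochberg adjustment. Fold changes on this scale understate those of low genes. A gene was called at an unadjusted p below 0.05. Alternatives were DESeq2 1.42.0 and edgeR 4.0.16 on the recovered reads, a pseudocount of 0.1, a value of at least 1 in every library, upper quartile and quantile scaling, the replicate number as a block, and each library left out. The fits were tested on simulated counts in which 200 genes changed by 2 on the log2 scale. At an adjusted p below 0.05, limma, DESeq2 and edgeR each recovered 100% of these, with 10, 16 and 14 false calls. The members changed by less than this, so the simulation does not show how well changes of their size are found.

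Named genes were Plat, Plau, Plaur, Plg, Serpine2 and Serpinf2, every other member with a mean of at least 200, every called member, every member with a mean of at least 10 whose groups did not overlap, and the called genes of the partner list. Of the 36 members, 1 is not reported here. The others are given by name, counts and ranges, and values of some that share a cluster or a marker with a result were added after they were seen. The members and the partner and marker lists were chosen with earlier results of these data known. The fit without both libraries numbered 3 and the ratios were chosen after the values were seen.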

Additional observations from a re-analysis of the deposited data

How the results depend on the processing

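Against 9 members called at an unadjusted p below 0.05 (3 higher, 6 lower), leaving out 1 library gave 7 to 15 (2 to 5 higher, 5 to 10 lower; 4.21% to 25.2% of all rows were then called), and without both libraries numbered 3 there were 15 (6 higher; 23.2% of all rows). Members with an adjusted p below 0.05 numbered 0, against 1 with DESeq2, 0 to 4 without 1 library and 4 without both libraries numbered 3. Called partner genes (8 higher, 7 lower) ran from 3 to 15 higher and 3 to 17 lower without 1 library, with 12 higher and 15 lower without both libraries numbered 3. Without UIRI replicate 3, which gave the highest of these, 13.7% and 11.5% of all rows were called higher and lower, and without both libraries numbered 3 it was 12.4% and 10.8%. The median log2 fold change of the members (-0.13) was -0.19 with DESeq2 and ran from -0.21 to -0.093 without 1 library. UIRI replicate 3 gave the upper end of these counts when left out. The cause was not tested.

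Of 307 alternatives for 22 named members, 260 kept direction and side of the threshold, 18 lost the call, 15 gained one and 14 turned the sign, and 16 members never turned. Without 1 library, log2 fold changes reached -0.077 to 0.27 for Plau, -0.13 to 0.058 for Plaur, -0.17 to 0.16 for Serpina1b, -0.29 to 0.11 for Serpina3g and -0.061 to 0.086 for Serpinb9. The values that turned were -0.0081 and -0.077 for Plau, 0.058 for Plaur, -0.17 and -0.09 for Serpina1b, 0.11 for Serpina3g and -0.040 and -0.061 for Serpinb9. Without both libraries numbered 3, Plaur was at 0.088, Serpina1b at -0.16 and Serpinb6b at 0.039. With upper quartile scaling Serpina1b was at -0.00076 and Serpinb9 at -0.0095, and with quantile normalization Serpinb9 was at -0.019. None of these had a call in the fit of all 6 libraries. With the replicate block, 10 members were called at an unadjusted p below 0.05, 4 higher and 6 lower, and 0 at an adjusted p below 0.05. The share of all rows called in that fit was not counted, so whether these counts exceed it is not known. The correlation of same-numbered deviations over 17249 genes was -0.24, 0.30 and 0.15 for numbers 1, 2 and 3. UIRI + BA replicates 2 and 3 correlated best with the UIRI library of their own number, and UIRI + BA replicate 1 with UIRI replicate 3 (0.24). With 3 libraries in each group these correlations cannot settle whether libraries of the same number belong together. The log2 ratio of Serpinf2 per proximal tubule count, 0.020, was -0.016 without Kap in the list. Serpins with a few reads, such as Serpinb6c, are limited by depth.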

Other observations

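The other marker lists are given as summed normalized counts, with no test of their part in any result. Neutrophil markers, of which 5 of 7 were in the table, were all lower with BA (1268 to 1758 in UIRI, 1053 to 1174 in UIRI + BA), and 3 had an unadjusted p below 0.05 from limma. Of the 5 mesothelium markers 4 were in the table, and all were lower (1271 to 1551 and 997 to 1134). Of 8 injured tubule markers 6 had a higher mean with BA. At an unadjusted p below 0.05 from limma 3 were higher (Havcr1, Vcam1 and Krt20) and 1 lower (Lcn2, 4507 to 5260 in UIRI, 3137 to 3540 in UIRI + BA), with no overlap for Havcr1, Vcam1 and Lcn2. Spp1 held 88.6% of the counts of this list, and the summed level overlapped (402740 to 417440 and 414640 to 482190). The lists of thick limb (27024 to 43714 and 32923 to 46250.0), collecting duct (1988 to 2658 and 1999 to 2755), T and NK cells (922 to 1254 and 724 to 1319), endothelium (7303 to 7725 and 6978 to 7447), podocytes (11197 to 12673 and 10082 to 13200.0) and hepatocytes (458 to 801 and 601 to 752) overlapped between the groups. Of 5 adrenal, 5 adipose and 5 mast cell markers, 1 each was in the table. These summed to 153 to 164 in UIRI and 142 to 184 in UIRI + BA for adrenal, 1392 to 1477 and 1444 to 1616 for adipose, and 576 to 659 and 576 to 732 for mast cells.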
